A study of Mus musculus with 6 samples.

Results

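The 9 genes described here, *Cx3cr1*, *P2ry12*, *Tmem119*, *Csf1r*, *Aif1*, *Trem2*, *Tyrobp*, *Ctss* and *Siglech*, are widely used to recognise microglia. They were selected by symbol, with no threshold on a measured value, and all 9 had a row among the 24453 gene rows of the table. The tissue was visual cortex, dissected at postnatal day 14 from C57BL/6J males perfused with paraformaldehyde. Stranded messenger RNA libraries were made, 3 labelled *Chrdl1* KO and 3 labelled WT. *Chrdl1* encodes chordin-like 1, a secreted protein of astrocytes that binds bone morphogenetic proteins. The labels give no promoter, Cre line or clone, and do not say whether each library came from a separate animal, so the p-values here reflect the spread among libraries, which may be technical. Each WT library shares a number in its title (1, 2 or 3) with 1 KO library.

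Microglia are the resident macrophages of the brain. They descend from progenitors of the yolk sac, depend on signals through the CSF1 receptor for survival, and watch their surroundings with motile processes that respond to nucleotides and to the chemokine fractalkine released by neurons. In the developing visual cortex they are known for clearing debris and for taking up synaptic material. Transcripts such as *P2ry12* and *Tmem119* mark the homeostatic state and fall in many forms of activation, while *Tyrobp*, *Ctss* and *Csf1r* are shared with other macrophages.

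Depth, recovered from the steps of 1 read in the deposited FPKM values (fragments per kilobase of exon, scaled to the mapped reads of the library), was 22651100 to 38203050 reads per library. *Chrdl1* measured 3.09 to 3.65 FPKM in the WT libraries and 0.12 to 0.19 in the KO libraries, so no library went against its label. The table is dominated by other cell types: 10 neuronal genes summed to 3350 to 3656 FPKM per library, against 124.7 to 143.0 for the 9 microglial genes. Markers of striatal neurons summed to 261.1 to 308.2 FPKM in WT, but to 134.5, 301.3 and 135.6 in KO replicates 1, 2 and 3. Libraries with the same title number deviated together from their group means.

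The label of the gene group was checked against genes outside it. Of 30 other genes of homeostatic microglia, 28 had a mean of 1 FPKM or more. All 15 markers of blood leukocytes stayed below 1 FPKM, with the monocyte receptor gene *Ccr2* at 0.021 to 0.066 FPKM and *Chil3* listed at 0 in every library. Of 13 markers of macrophages at the brain's borders, 9 were below 1 FPKM, and *Mrc1*, which encodes the mannose receptor CD206, measured 0.896 to 1.43 FPKM. The summed level of these 13 was 8.88 to 12.4 FPKM in WT and 9.52 to 11.9 in KO.

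None of the 9 microglia identity genes differed between KO and WT by the test. Differences are KO minus WT on the scale of log2(FPKM + 1), tested with limma over the 12863 genes whose mean was at least 1 FPKM, with adjustment by the method of Benjamini and Hochberg and a threshold of 0.05. Across all tested genes 0.00777% were called, which is *Chrdl1* alone, and 0 of the 9 genes were, with a limma adjusted p of 1 for each. At an unadjusted p under 0.05 the count was 0 of 9, against 0.63% of all tested genes. This fit leaves out the title number, which pairs the libraries. Intervals below come from this fit unless stated otherwise, and including that number as a block narrowed the interval of each of the 9 genes. With that number as a replicate block, 0 of 9 were called and 1 of 9, *Tyrobp*, had such a p, against 3.91% of all tested genes. The values of KO and WT overlapped for all 9 genes, where 2.95% of all tested genes showed no overlap. Of the 9 genes 7 were lower and 2 higher in KO, with a median of -0.04 (all tested genes 0.01). Of all 12863 tested genes 5897 were lower, 6883 higher and 83 at 0, the background for the counts of direction given below. In bulk tissue, fewer microglia and less of a transcript per microglial cell cannot be told apart.

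**Figure D1:**
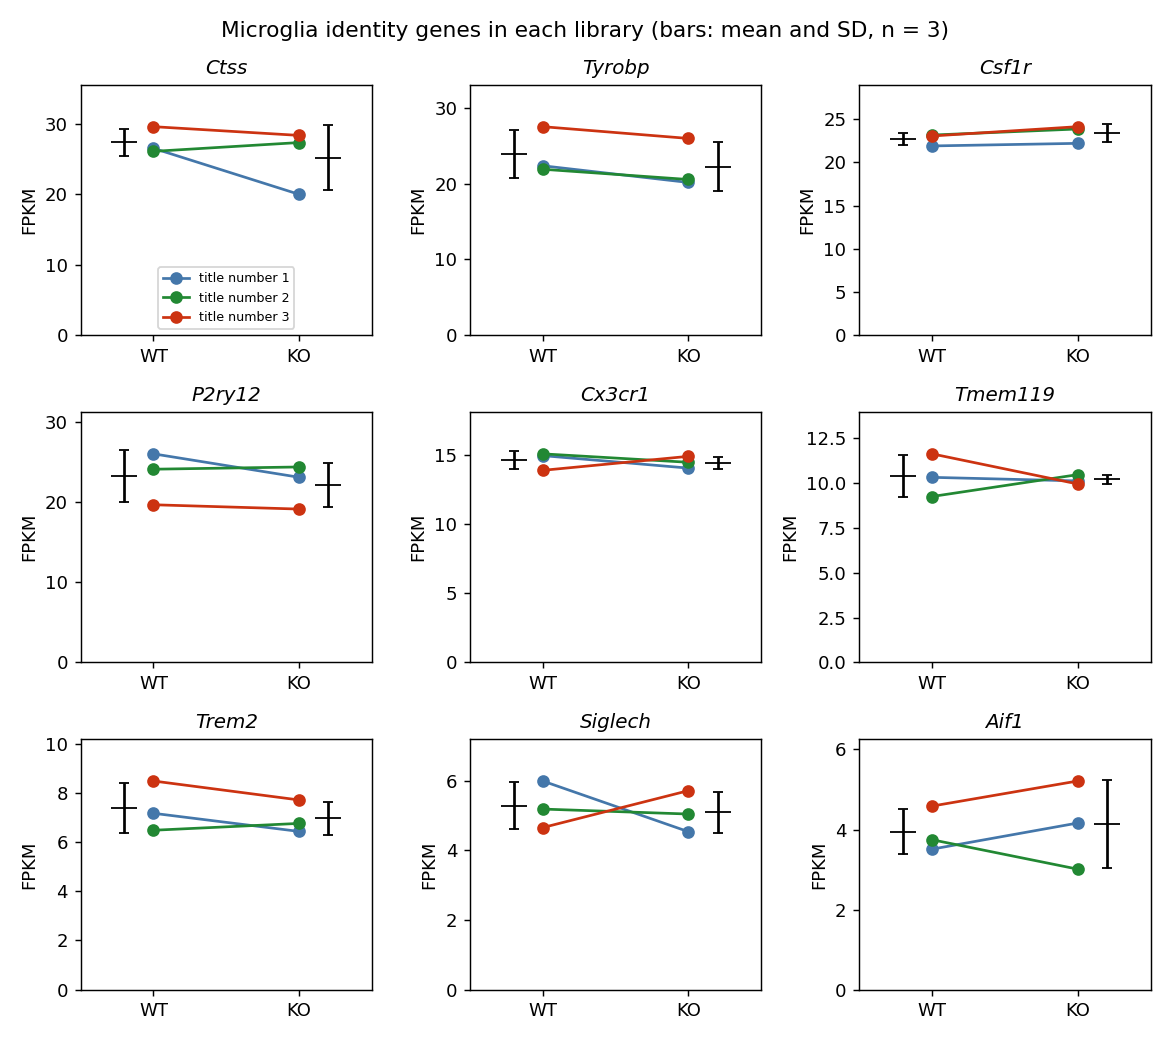
FPKM (vertical axes, each from 0) of the 9 microglia identity genes in WT and KO libraries, ordered by mean level. Lines join libraries with the same title number, and black bars give the mean and SD of 3 libraries. WT and KO overlap in every panel, and the 2 libraries numbered 3 are lowest for *P2ry12* and highest for *Ctss*, *Tyrobp*, *Trem2* and *Aif1*.

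*Csf1r* and *Cx3cr1* varied least over the 6 libraries, with coefficients of variation of 3.81% and 3.45%, against 7.60% to 19.5% for the other members. *Csf1r* encodes the receptor for CSF1 and IL-34 on which microglial survival depends. Its level was 21.9, 23.2 and 23.1 FPKM in WT replicates 1, 2 and 3 and 22.2, 23.9 and 24.1 FPKM in the KO replicates, or 22.7 ± 0.696 and 23.4 ± 1.04 (SD, n = 3). The KO library was the higher one in each pair of libraries with the same number, by 0.02, 0.04 and 0.06, a pattern that 12.1% of all tested genes shared. The difference was 0.04 with a 95% interval of -0.12 to 0.20. These values rest on 2082 to 3224 reads per library. The gene (NM_001037859) lies on the plus strand of mm10 chromosome 18, from 61105572 to 61131139.

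*Cx3cr1* encodes the fractalkine receptor and lies on the minus strand of chromosome 9 (NM_009987, mm10, 120048683 to 120068296). It measured 14.9, 15.1 and 13.9 FPKM in WT replicates 1, 2 and 3 and 14.0, 14.4 and 14.9 FPKM in KO. No library stood apart, and the coefficient of variation over the 6 libraries was 3.45%, the smallest of the 9 genes, where counting error alone gives 2.50%. The difference was -0.02, with an interval of -0.18 to 0.15. Its ligand gene *Cx3cl1*, made mainly by neurons, averaged 353 FPKM (SD 31.4) in the WT libraries and 352 FPKM (SD 24.9) in the KO libraries.

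*P2ry12* encodes the ADP receptor that steers microglial processes toward sites of injury. It measured 26.1, 24.1 and 19.7 FPKM in WT replicates 1, 2 and 3, and 23.1, 24.4 and 19.2 FPKM in KO. Both libraries numbered 3 were the lowest of their genotype, so that the spread within a genotype (SD 3.27 in WT and 2.74 in KO) exceeded the gap between the means of 23.3 and 22.2 FPKM. The difference was -0.06, with an interval of -0.36 to 0.23 that narrowed to -0.18 to 0.06 when the title number was included as a replicate block. The gene (NM_027571) lies on the minus strand of chromosome 3 in mm10, from 59216271 to 59262831. It sits inside *Med12l*, a gene on the plus strand with a mean of 3.34 FPKM, and their GENCODE M21 exons do not overlap in that interval. The kit keeps the strand, but the sources used here state no strand setting for the counting, so reads from *Med12l* introns within *P2ry12* exons cannot be told apart.

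*Trem2* (NM_031254, plus strand of mm10 chromosome 17, 48346401 to 48352276) and *Tyrobp* (NM_011662, plus strand of chromosome 7, 30413788 to 30417579) encode a receptor for lipids and its signalling adaptor, DAP12, whose intracellular motif recruits the kinase SYK. *Trem2* measured 7.17, 6.48 and 8.49 FPKM in WT replicates 1, 2 and 3 and 6.43, 6.76 and 7.71 in KO. The libraries numbered 3 were the highest of each genotype. The difference between genotypes was -0.07, with an interval of -0.32 to 0.18, or -0.21 to 0.07 with the title number as a replicate block. *Tyrobp* measured 22.3, 21.9 and 27.5 FPKM in WT and 20.1, 20.5 and 25.9 in KO, again with both libraries numbered 3 on top. *Tyrobp* was lower in KO in 3 of 3 pairs, by -0.14, -0.09 and -0.08, a direction that 9.45% of all tested genes shared. Its difference was -0.10, with an interval of -0.39 to 0.19 and a limma adjusted p of 1. The replicate block called 0.00777% of all tested genes, and 3.91% had an unadjusted p under 0.05. In that fit *Tyrobp* was the only member under 0.05 before adjustment, with an interval of -0.205 to -0.003 and a limma adjusted p of 0.999 (unadjusted 0.0452). On the recovered reads with the block, 0 of 9 had such a p. *Trem2* rested on 166 to 313 reads per library and *Tyrobp* on 260 to 523.

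*Trem2* and *Tyrobp* had the steadiest ratio of all 36 pairs of members. The ratio of *Trem2* to *Tyrobp* in FPKM was 0.321, 0.296 and 0.309 in WT replicates 1, 2 and 3, and 0.319, 0.329 and 0.297 in the KO replicates, a coefficient of variation of 4.33%. Next came *Cx3cr1* to *Csf1r* with 4.84%, at 0.601 to 0.681. At the other end, the ratio of *P2ry12* to *Aif1* ran from 3.68 to 8.11 (29.4%), and that of *P2ry12* to *Tyrobp* was 0.716 and 0.739 in the WT and KO libraries numbered 3, and 1.10 to 1.19 in the other 4. These ratios are a description of 6 libraries, and the steadiest pairs were picked after their values were seen. Counting error alone gives a coefficient of variation of 6.65% for *Trem2* and 5.18% for *Tyrobp*, both above the 4.33% of their ratio. The steadiness of that ratio therefore says nothing of the receptor complex.

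*Siglech* (NM_001310740, plus strand of chromosome 7, 55768184 to 55778925) encodes a sialic-acid-binding lectin that also signals through DAP12. It measured 5.99, 5.19 and 4.66 FPKM in WT replicates 1, 2 and 3 and 4.54, 5.04 and 5.72 FPKM in KO. The pairs went in different ways: KO was lower by -0.34 in number 1, close in number 2 at -0.03, and higher by 0.25 in number 3. The difference over all libraries was -0.04, with an interval of -0.30 to 0.21.

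*Ctss* (NM_021281, plus strand of chromosome 3, 95526786 to 95556405) encodes cathepsin S, a lysosomal cysteine protease that cleaves the invariant chain of MHC class II and is also secreted. It had the highest mean of the 9 genes, with values of 26.5, 26.1 and 29.6 FPKM in the numbered WT libraries and 19.98, 27.3 and 28.3 FPKM in KO. KO replicate 1 was the lowest library, and the other 5 lay between 26.1 and 29.6. The difference of -0.13 was the farthest from 0 among the 9 genes, and its interval of -0.44 to 0.18 included 0. Without KO replicate 1, *Ctss* stood at 0.02, so the direction rested on that library, which held 710 reads of the gene against 834 to 1364 in the others.

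KO replicate 1 was also the lowest of the 6 libraries for *Trem2*, *Tyrobp* and *Siglech*, and its summed level of the 9 genes, 124.7 FPKM, was the lowest, against 135.0 to 143.0 in the other libraries. In its pair, 7 of 9 members were lower in KO with a median of -0.14, where 52.4% of all tested genes were lower. For number 2 it was 4 of 9 with a median of 0.02, and for number 3 it was 5 of 9 with a median of -0.04. The same library had the lowest summed levels of oligodendrocyte markers (1444 FPKM, against 1826 to 3075 in the others), of astrocyte markers (804.6 against 838.5 to 925.9) and, closely followed by KO replicate 3, of striatal markers. Its pericyte and smooth muscle markers were the highest (103.9 FPKM against 94.21 to 100.8), and its meningeal fibroblast markers (117.4) were above all WT libraries (88.1 to 95.46), as they were in KO replicates 2 and 3 (96.47 and 121.2). Red blood cell genes were highest in KO replicate 2 (43.77 against 8.825 to 13.03 in the others). The part of these differences in tissue content in the microglial values was not tested.

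*Tmem119* (NM_146162, minus strand of chromosome 5, 113793729 to 113800352) encodes a membrane protein used to separate microglia from blood-derived macrophages. It measured 10.3, 9.25 and 11.6 FPKM in WT replicates 1, 2 and 3 and 10.1, 10.5 and 9.95 FPKM in KO. The KO libraries lay inside the range of WT, and the difference was -0.02 (interval -0.23 to 0.19). *Aif1* (NM_019467, minus strand of chromosome 17, 35170992 to 35176001), which encodes the actin-binding protein IBA1 used to stain microglia, was the lowest member. It measured 3.51, 3.75 and 4.59 FPKM in WT and 4.16, 3.01 and 5.21 FPKM in KO. Its difference of 0.04 had the widest interval of the 9, -0.34 to 0.42, on 59 to 144 reads per library, and its coefficient of variation over the 6 libraries was 19.5%.

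**Figure D2:**
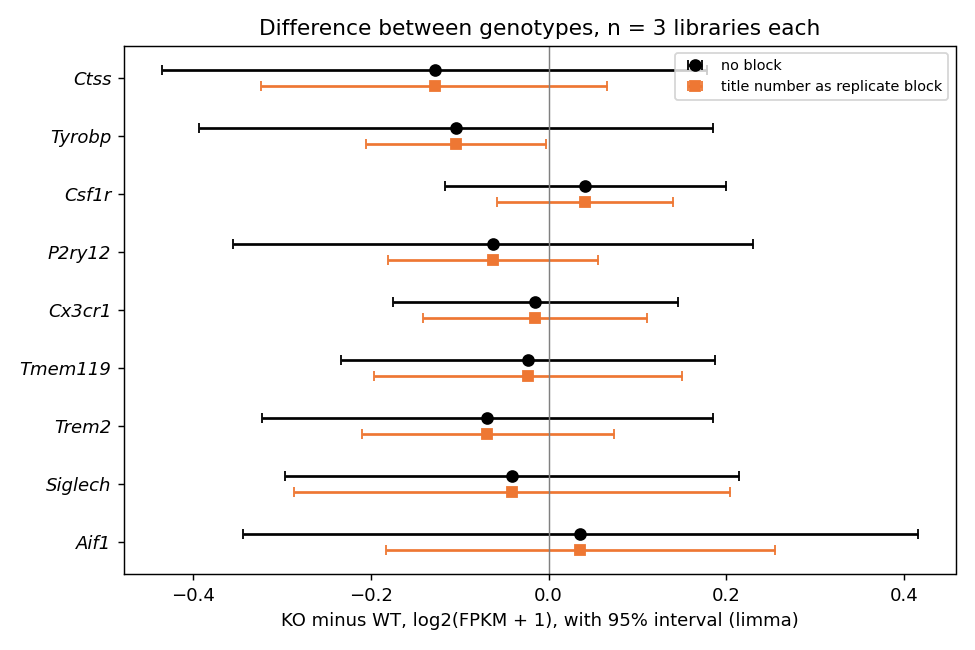
KO minus WT difference in log2(FPKM + 1) of each microglia identity gene with its 95% interval from limma, without a block (black circles) and with the title number as a replicate block (orange squares), n = 3 libraries per genotype. Without the block all 9 intervals include 0 and extend no further than -0.44 and 0.42. With it the interval of *Tyrobp* ends just below 0.

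Per length, the members fell into levels whose order held in every library, except at the top. *Ctss* had a mean of 26.3 FPKM over the 6 libraries and exceeded *Tyrobp* (23.1) in 5 of 6. *Tyrobp*, *Csf1r* (23.1) and *P2ry12* (22.8) did not differ beyond their spread: *Tyrobp* was above *Csf1r* in 3 of 6 libraries and *Csf1r* above *P2ry12* in 2 of 6. Below them *Cx3cr1* (14.5), *Tmem119* (10.3), *Trem2* (7.17) and *Siglech* (5.19) followed without overlap between neighbours. *Siglech* exceeded *Aif1* (4.04) in 6 of 6 libraries, although their ranges overlapped.

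Differences between title numbers were larger than those between genotypes for several members. With genotype in the model, a limma F test of the title number called 30.6% of all tested genes at an adjusted p under 0.05, and 2 of the 9 members, *Tyrobp* (adjusted p = 0.00892) and *P2ry12* (adjusted p = 0.0151), a share of 22.2% that is not above this background. The members moved in opposite directions. *Tyrobp* averaged 21.2, 21.2 and 26.7 FPKM for numbers 1, 2 and 3 (mean of 1 WT and 1 KO library each), and *P2ry12* averaged 24.6, 24.3 and 19.4 FPKM. The call of *P2ry12* was lost without WT replicate 3 (adjusted p = 0.0602) and without the filter on low genes (0.0534), while *Tyrobp* was called under each of the 12 alternatives run.

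*Aif1* (3.84, 3.38 and 4.90 FPKM), *Trem2* (6.80, 6.62 and 8.10) and *Ctss* (23.2, 26.7 and 29.0) were also highest for number 3 and missed the threshold, with adjusted p of 0.0541, 0.0589 and 0.0958 by the limma F test. For these genes single libraries and settings decided the call. *Aif1* passed without WT replicate 2 (0.00428), WT replicate 3 (0.0387) or KO replicate 2 (0.0429). *Trem2* passed without KO replicate 2 (0.0272), at a mean of 5 FPKM or more (0.0451) and with TMM scaling (0.0465). *Ctss* passed with voom on the recovered reads (0.0425) and without WT replicate 1 (0.0286), WT replicate 2 (0.0153) or KO replicate 2 (0.0196). *Cx3cr1*, *Tmem119*, *Csf1r* and *Siglech* had adjusted p of 0.882, 0.549, 0.287 and 0.984.

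Exon length moved with the title number. Between the libraries numbered 3 and 2, the median difference in log2(FPKM + 1) was 0.16 for the tested genes of up to 1747 bp, 0.06 for those of 1748 to 2802 bp, -0.02 for 2803 to 4241 bp, and -0.12 for 4243 bp or more. The exon models of *Tyrobp*, *Aif1*, *Trem2* and *Ctss*, 559, 865, 1084 and 1347 bp, are the shortest of the 9. *Tmem119* (2074 bp) and *Csf1r* (3851 bp) also had their highest mean in number 3, and *Tmem119* differed by 0.12 between numbers 3 and 2, where genes of like length had a median of 0.07. *Tyrobp* differed by 0.32, where genes within 1.2-fold of its length had a median of 0.26, and *Trem2* by 0.26 against 0.18. *Ctss* differed by 0.11 against 0.14, and *Aif1* by 0.43 against 0.21.

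*P2ry12*, with 2332 bp, differed by -0.31 where genes of like length had a median of 0.05, and 6.78% of those 2552 genes lay below it. With the trend on length removed from each library, an alternative chosen after seeing the data, *P2ry12* and *Tyrobp* were still called (limma adjusted p = 0.00964 and 0.0421), against 22.1% of all tested genes, and *Aif1* and *Trem2* were at 0.313 and 0.174. What the title number stands for is not given in the labels, and the part of exon length in these calls was otherwise not tested.

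**Figure D3:**
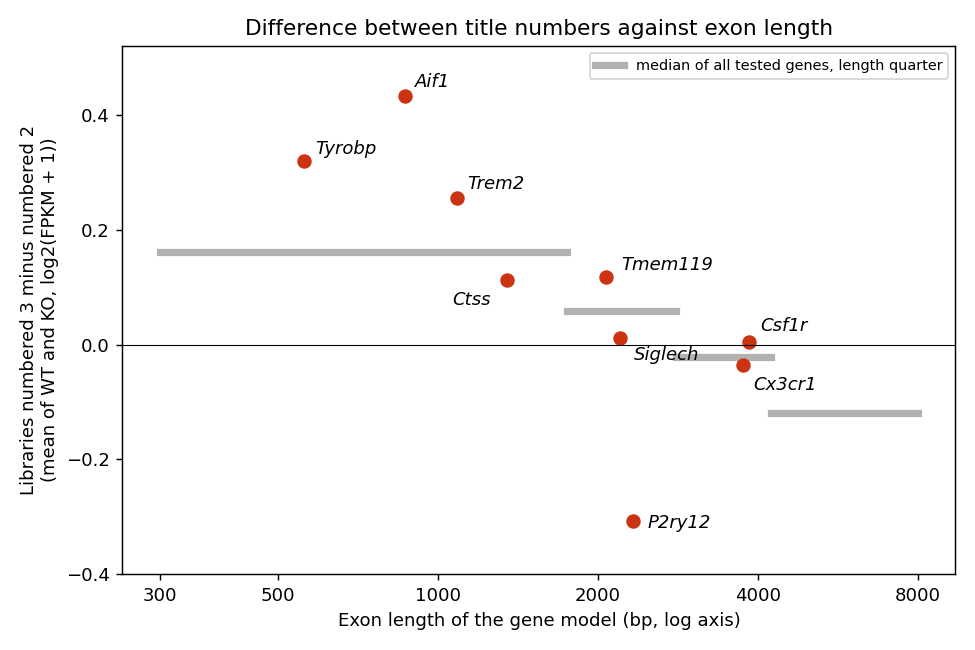
Difference between the libraries numbered 3 and numbered 2 (vertical axis, log2(FPKM + 1), mean of WT and KO) against exon length (horizontal log axis, bp). Red points are the 9 members, and grey bars the medians of all tested genes in 4 classes of length, cut off at the ends of the axis. *Tyrobp*, *Aif1* and *Trem2* lie at the short, higher end, and *P2ry12* at -0.31 lies below every other member.

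The promoters of *Trem2* and *Ctss* are shown because both hold the core GAGGAA of the site bound by PU.1, the transcription factor encoded by *Spi1* that myeloid cells need. RefSeq windows (GRCm38.p6, the assembly of mm10) matched 6 of the 9 genes. *Tmem119*, *Csf1r* and *Tyrobp* had no entry. Within the 250 bases before the start, 3 of these 6 (*Aif1*, *Ctss* and *Trem2*) held GAGGAA or its reverse complement TTCCTC, a match that 23.3% of all 32851 windows share. The letters GGAAGT of ETS factors (19.7% of all windows, either strand) and CACGTG (6.02%) were each found in *P2ry12* and *Siglech*, and TGAGTCA (4.46%) in none of the 6. GAGGAA and GGAAGT can overlap by 4 letters. The windows of *Siglech*, *Cx3cr1* and *Aif1* overlap GENCODE exons of the same gene. That of *P2ry12* overlaps exons of *Med12l*, and the bases at its start were not found in a GENCODE transcript of *P2ry12*. The stretches below run 5′ to 3′ on the gene's strand and end before the start, with the match in capitals. That of *Trem2* lies at chr17:48346321-48346400 (plus strand), its match beginning 40 bases before the start, and that of *Ctss* at chr3:95526582-95526667 (plus strand), 164 bases before the start.
Trem2: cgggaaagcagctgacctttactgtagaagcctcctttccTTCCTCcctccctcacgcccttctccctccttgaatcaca
Ctss: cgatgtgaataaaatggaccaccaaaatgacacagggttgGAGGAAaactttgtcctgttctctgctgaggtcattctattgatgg
A match describes these letters and says nothing of binding. *Spi1* itself measured 2.19 FPKM on average, with a difference between genotypes of 0.02 (limma adjusted p = 1).

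Of the other genes of homeostatic microglia 28 were tested, and 14 were higher, 13 lower and 1 at 0, with a median of 0.00, a range of -0.21 to 0.22 and 0 called by limma. An unadjusted p under 0.05 was found for 1 without the block (0.63% of all tested genes), 2 with it (3.91% of all), 0 with voom on recovered reads and 1 with voom and the block. Libraries of KO and WT did not overlap for 2 of the 28, *Fcgr3* and *Olfml3*, against 2.95% of all tested genes. *Lgmn*, which encodes the lysosomal protease legumain, averaged 72.9 ± 4.01 FPKM in the WT libraries and 72.9 ± 3.64 in KO (SD, n = 3), and *C1qc*, a chain of complement C1q, 32.3 ± 4.29 and 32.4 ± 2.98.

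*Fcgr3*, which encodes a low-affinity receptor for IgG, was the gene with an unadjusted p under 0.05 without the block. It measured 7.78, 7.57 and 8.10 FPKM in WT replicates 1, 2 and 3 and 6.22, 6.49 and 7.19 FPKM in KO, without overlap. The difference was -0.21 (interval -0.39 to -0.03, limma unadjusted p = 0.0296, adjusted p = 1, and 0.999 with the block). With the block the limma unadjusted p was 0.00608, where 3.91% of all tested genes were under 0.05. KO was lower in 3 of 3 pairs, by -0.28, -0.19 and -0.15, a direction that 9.45% of all tested genes shared. *Ltc4s*, the leukotriene C4 synthase gene, was at 0.22 (3.98 ± 0.587 and 4.78 ± 0.178 FPKM), *Olfml3* at -0.14 (12.2 to 12.5 FPKM in WT and 9.87 to 11.9 in KO) and *Vsir* at 0.08. Of these 28 genes 6 (21.4%) were called between title numbers, a share below the 30.6% of all tested genes, and they are named here after their values were seen. The C1q chain genes *C1qa*, *C1qb* and *C1qc*, of 1049 to 1077 bp, were highest in number 3, like *Tyrobp* (33.3, 34.5 and 36.4 FPKM there). *P2ry13*, an ADP receptor gene related to *P2ry12*, was lowest in number 3 (6.81, 5.63 and 5.08 FPKM), as were *Cd33* and *Sall1*.

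Genes that sustain microglia did not pass either. Of 15 genes for ligands and TGF-beta signalling, 7 were higher and 8 lower in KO, with a median of 0.00, 0 called and 0 with an unadjusted limma p under 0.05, with or without the block or with voom. KO and WT did not overlap for 1 of the 15, *Pros1*, which was higher in KO, against 2.95% of all tested genes. *Apoe*, a ligand of TREM2 made largely by astrocytes, measured 830 ± 115 FPKM in WT and 853 ± 81.5 in KO, *Clu* 317 ± 62.6 and 334 ± 68.6. *Tgfb1*, whose product keeps microglia homeostatic, was at 0.12, *Nrros*, which presents latent TGF-beta on microglia, at -0.15, *Pros1* at 0.09 and *Tgfbr2* at 0.07. Of 10 tested lineage transcription factor genes 8 were higher and 2 lower, with a median of 0.05 and 0 called or under an unadjusted p of 0.05 in any of the 4 fits. *Irf8*, *Fli1* and *Maf* were at 0.04, 0.06 and 0.10. *Mef2c* (0.02) and *Mef2a* (-0.02), which neurons also express, were the most abundant.

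Genes that act downstream of the receptors or in lysosomes were not called either. Of 11 tested genes of TREM2 and TYROBP signalling 6 were higher and 5 lower (median 0.01), with *Ptpn6*, *Cblb*, *Pik3r1* and *Inpp5d* at 0.08, 0.07, 0.04 and -0.05, and the abundant *Grb2* and *Adam10* at -0.03 and 0.03. Of 9 tested genes of G protein coupling and nucleotide responses 4 were higher, 4 lower and 1 at 0. *Kcnk13*, which encodes the potassium channel THIK-1 of microglia, measured 1.57 ± 0.310 FPKM in WT and 1.35 ± 0.280 in KO. *Arrb1*, *Akt1* and *Arrb2* were at 0.05, 0.04 and -0.04, and *Gnai1* and *Gnai2* at 0.00 and 0.00. Of 14 tested genes of cathepsins and lysosomes 10 were higher and 4 lower (median 0.03), with *Cst3*, the cystatin C gene, at 977 ± 170 and 973 ± 170 FPKM, *Lamp1* at 0.01 and *Ctsd* at 0.03. *Cd74*, the invariant chain gene, was at 0.21, *Gusb* at 0.12, *Ctsh* at 0.07 and *Ctsk* at -0.08. In these 3 lists limma called 0 genes, and 0 had an unadjusted p under 0.05 in the fits with or without the block or with voom. Among the 14 genes of cathepsins and lysosomes KO and WT did not overlap for 1, *Gusb*, which was higher in KO, against 2.95% of all tested genes.

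Of 25 genes of activated microglia 15 had a mean below 1 FPKM. Among them *Clec7a* held 2 to 8 reads per library, *Itgax* 0 to 7 and *Tnf* 0 or 1, while *Gpnmb* held 26 to 64 and *Nos2* 26 to 75. The interleukin gene *Il1b* held 11, 6 and 21 reads in WT replicates 1, 2 and 3 and 2, 8 and 16 in KO. Of the 10 tested genes 5 were higher and 5 lower, with a median of 0.00, and 0 were called or had an unadjusted limma p under 0.05 in any of the 4 fits with the filter. Without the filter, which tests all 25, 0 were called and 2 had such a p, *Ccl3* (1 to 5 reads per library) and *Ch25h* (9 to 23). Of all 19781 genes tested in that fit, 344 had such a p. *Axl* measured 7.65 ± 0.341 and 8.16 ± 0.436 FPKM, *Spp1* 5.56 ± 1.63 and 6.33 ± 0.631, and *Cd9*, *Cd63* and *Lpl*, which other brain cells also express, were at -0.04, 0.02 and 0.01. *Cd52* was at -0.07 and *Ptgs2* at -0.06. Of the 4 tested genes of border macrophages 3 were higher and 1 lower, and 0 were called by limma. An unadjusted p under 0.05 was found for 0 of 4 without the block (0.63% of all tested genes). It was found for 1 of 4, *Pf4*, with the block (3.91% of all), and for 0 of 4 with voom, with or without the block. *Pf4* measured 1.41 ± 0.182 and 1.02 ± 0.342 FPKM (-0.26, limma adjusted p = 1, and 0.999 with the block), *Stab1* was at 0.10, *Colec12* at 0.13 and *Mrc1* at 0.09.

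**Figure D4:**
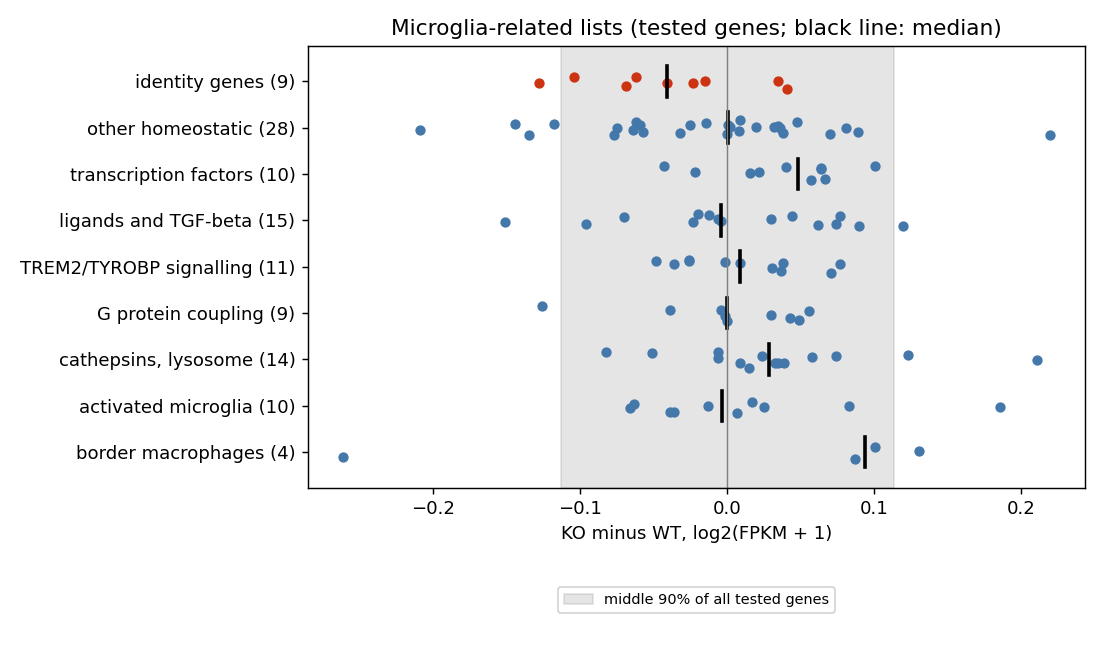
KO minus WT difference in log2(FPKM + 1) of the tested genes of each microglia-related list (numbers of genes in parentheses), with the identity genes in red, list medians as black lines and the middle 90% of all tested genes (-0.11 to 0.11) in grey. Points scatter on both sides of 0 in every list.

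The 10 genes most like the members in profile over the 6 libraries were in none of the gene lists used here. Likeness was Pearson's r between log2(FPKM + 1) of a gene and the mean of the 9 members' values, each centred on its own mean, which ranged only from -0.10 in KO replicate 1 to 0.07 in KO replicate 3. The 10 most alike were *Smco3*, *Slc35a4*, *Cyp4v3*, *Hadhb*, *Gstz1*, *Irf1*, *Zfp658*, *Dguok*, *Lancl1* and *Gtf2h3*, with r of 0.97 to 0.98 over 6 libraries that share title numbers. Of the listed genes, *Fcrls*, a microglial Fc receptor-like gene, was the single one among the 100 most alike, at rank 19 with r of 0.95. An r over 0.7 was found for 8 of 28 other homeostatic microglia genes and 5 of 14 cathepsin and lysosome genes, 0 of 10 transcription factor genes, and 979 of all 12854 tested genes outside the members. The shares of the homeostatic and of the cathepsin and lysosome genes were thus above that of all these genes. Those of the transcription factor genes and of TREM2 and TYROBP signalling (0 of 11) were below it. Among the members themselves, *Trem2* and *Tyrobp* were most alike (r of 0.94), and *P2ry12* and *Aif1* most opposed (r of -0.88). These values describe 6 libraries that share title numbers pairwise and differ in depth.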

How the data were processed

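The authors deposited 1 table of FPKM values per gene and library, made on mm10 with HOMER over exons with transcripts condensed to 1 row per gene, per the file headers. The submitters' processing notes name STAR 2.4.0k, HOMER 4.8.3 and FastQC. The HOMER command in the header lists 12 libraries, and only the 6 with columns in the table were used. Of the values under 200 reads that were checked, 100.0% in each library were whole reads within 0.1 read. The intervals printed here come from limma and reflect the spread among libraries, not counting error alone.

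Tests used limma 3.58.1 (R 4.3.3), 2-sided, on log2(FPKM + 1) with an intensity trend, for genes averaging at least 1 FPKM. The title number was tested by a moderated F test with genotype in the model. The tests were also run on simulated data with planted differences. The outcome of that run is not reported here, and no statement above rests on it. Pairing was checked by the correlation of deviations from group means, 0.43, 0.71 and 0.67 for the same numbers, against -0.61 to -0.06 otherwise, so the numbers pair the libraries. Counts of every pair of libraries differed beyond sampling noise (chi-square over degrees of freedom at least 2.80), so none was treated as a duplicate. Alternatives were the pseudocount, filters, TMM scaling, voom on recovered reads, the replicate block, array weights, left-out libraries and, added after seeing the data, removal of the trend on exon length and the block with voom.

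The members and lists were chosen with earlier results of these data known. Named genes are the 9 members, *Chrdl1*, for each microglia-related list the 4 with the smallest unadjusted p and the 3 most abundant, and the 10 genes most alike in profile. Others were chosen after their values were seen. Some genes that the rule names are not reported here. Gene overlaps came from GENCODE M21 and promoter windows from RefSeq on GRCm38.p6, searched on both strands. Joins and figures used pandas 2.3.3 and matplotlib 3.10.9 (Python 3.11.15).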

Additional observations from a re-analysis of the deposited data

How the results depend on the processing

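No member was called between genotypes in any alternative run, and the lowest limma adjusted p was 0.999. In all 89 member values from alternatives that kept every library the direction was that of the main value. Many of these could not differ, because the filters and the replicate block leave the difference itself unchanged in this balanced design. The replicate block called 1 gene and changed no call. Over all genes, KO against WT called 1 gene, 2 with a pseudocount of 0.1, 6 without a filter, 0 at a mean of 5 FPKM or more, where *Chrdl1* and *Aif1* are not tested, 2 with voom and the block, 0 without both libraries numbered 1 or both numbered 2, and 1 to 4 without 1 library. The F test of title numbers called 3936 genes, 1347 without a filter, and 2038 to 3923 without 1 library. The cause was not tested.

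Without 1 library, KO minus WT differences ran from -0.050 to 0.005 for *Cx3cr1*, -0.174 to 0.037 for *P2ry12*, -0.097 to 0.053 for *Tmem119*, 0.016 to 0.077 for *Csf1r*, -0.114 to 0.201 for *Aif1*, -0.147 to 0.024 for *Trem2*, -0.216 to -0.003 for *Tyrobp*, -0.218 to 0.024 for *Ctss* and -0.114 to 0.040 for *Siglech*. Without both libraries numbered 1, *Cx3cr1*, *Aif1*, *Ctss* and *Siglech* changed sign (0.019, -0.045, 0.003 and 0.107). *Cx3cr1* also did without both numbered 2 (0.006), and *Tmem119* and *Aif1* without both numbered 3 (0.068 and -0.024). With 3 libraries per genotype, members' intervals reached as far as -0.44 (*Ctss*) and 0.42 (*Aif1*), and with the replicate block -0.32 (*Ctss*) and 0.25 (*Aif1*).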
